A study of Mus musculus with 9 samples.

Results

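The Schlafen genes of the mouse were followed in neutrophils taken from lung, blood and bone marrow. The 7 protein-coding members Slfn1, Slfn2, Slfn3, Slfn4, Slfn5, Slfn8 and Slfn9 were picked by symbol from a deposited table of 24532 genes, with their counts in these same libraries already known. Their levels and the differences between tissues are therefore a description, without a test. Of the members' values only transcript shares carry p-values, and these are given without a reading. All 7 passed the filter on low counts that left 13510 genes. Every library came from wild-type C57BL/6 animals that the labels give no treatment for, and the cells were FACS-sorted and typed as neutrophils by the submitters. Polyadenylated RNA was sequenced from 3 libraries of lung neutrophils, 3 of blood neutrophils and 3 of bone marrow neutrophils. Nothing in the labels gives age, sex or sort gate, or says which libraries share an animal or a pool, so errors and p-values measure only the spread between these libraries.

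Schlafen proteins share an N-terminal domain, which in some members can cut transfer and ribosomal RNA, and the long members add a helicase-like C-terminal part. The family takes its name from the growth arrest of T cells that overexpress Slfn1, and many members are induced by type I interferon in leukocytes. In myeloid cells they are studied for cell quiescence, differentiation and the response to infection. The coding sequences annotated by GENCODE, without the stop codon, showed the known size classes. The short members Slfn1 and Slfn2 had 1011 and 1134 coding bases, and the intermediate members Slfn3 and Slfn4 had 1551 and 1806. The long members Slfn5, Slfn8 and Slfn9 had 2652, 2730 and 2730.

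All 7 members lay in 1 cluster on chromosome 11, chr11:82952102-83286726 in mm10, over 334.6 kb with 9 Schlafen genes. The order was Slfn5, Slfn9, Slfn8, the pseudogene Slfn10-ps, Slfn2, Slfn1, Slfn4, Slfn3 and Slfn14. Slfn9, Slfn8, Slfn10-ps and Slfn14 were on the minus strand and the other 5 on the plus strand. RefSeq promoters of GRCm38.p6, from 250 bases before to 50 bases after the start, were found for 7 of 7 members, and Slfn8 had 2. Each was searched on both strands for the core of the interferon-stimulated response element, that is GAAA, any 2 bases and GAAA again. Slfn5, Slfn8 and Slfn9 held 1 match each, and Slfn1, Slfn2, Slfn3 and Slfn4 held none. Of all 32851 promoters in the table, 3.44% held the core. Counted by gene, 3.99% of 27025 genes held it in at least 1 promoter. In the interferon-stimulated list described further on, 20 of the 43 genes with a promoter in the table held it. The promoters of the 3 members with a match are printed because their genes were highest in blood without overlap in CPM, and that of Slfn1 because its gene was lowest in lung. Capitals mark the match, which on the minus strand reads as its reverse complement.
Slfn5 promoter, chr11:82951852-82952151, plus strand: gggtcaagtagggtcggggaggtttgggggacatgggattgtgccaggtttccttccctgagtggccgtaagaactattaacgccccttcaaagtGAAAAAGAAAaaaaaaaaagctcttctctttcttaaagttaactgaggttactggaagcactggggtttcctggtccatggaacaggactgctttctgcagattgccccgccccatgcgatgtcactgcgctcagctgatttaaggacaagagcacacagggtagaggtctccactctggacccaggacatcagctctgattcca
Slfn8 first promoter, chr11:83020761-83021060, minus strand: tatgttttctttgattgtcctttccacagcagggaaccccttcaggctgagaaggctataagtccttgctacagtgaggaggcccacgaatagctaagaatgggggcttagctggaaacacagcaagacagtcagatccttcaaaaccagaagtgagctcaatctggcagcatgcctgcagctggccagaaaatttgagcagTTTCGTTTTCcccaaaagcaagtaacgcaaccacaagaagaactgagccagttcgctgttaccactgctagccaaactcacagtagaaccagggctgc
Slfn9 promoter, chr11:82991781-82992080, minus strand: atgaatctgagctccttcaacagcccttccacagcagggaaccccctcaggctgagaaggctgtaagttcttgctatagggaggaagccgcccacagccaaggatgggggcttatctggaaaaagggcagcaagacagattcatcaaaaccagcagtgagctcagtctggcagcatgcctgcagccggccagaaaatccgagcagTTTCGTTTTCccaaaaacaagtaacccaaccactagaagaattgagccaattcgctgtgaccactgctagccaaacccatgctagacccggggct
Slfn1 promoter, chr11:83116570-83116869, plus strand: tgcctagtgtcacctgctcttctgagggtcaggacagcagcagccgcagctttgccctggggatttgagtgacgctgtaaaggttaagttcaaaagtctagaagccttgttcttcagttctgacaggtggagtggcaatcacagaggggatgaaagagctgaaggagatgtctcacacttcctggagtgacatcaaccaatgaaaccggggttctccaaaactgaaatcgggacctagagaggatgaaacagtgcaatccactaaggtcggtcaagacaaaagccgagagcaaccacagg

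The match in Slfn5 stood at bases -155 to -146 from the start and ran into a stretch of adenines. Those in Slfn8 and Slfn9 had the same 10 letters, at -48 to -39 and at -45 to -36. The Slfn8 and Slfn9 promoters were identical at 248 of 292 aligned bases (84.9%), and their coding sequences at 2531 of 2730 (92.7%). Neither the STAT site TTCNNNGAA nor the PU.1 core GAGGAAGT, searched on both strands, matched in any member's promoter. They were held by 8.30% and 3.20% of all promoters. A match is a string of letters in this window and not a measured binding site.

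Libraries held 42045548 to 56796219 reads counted in genes, with at least 10 reads in 11642 to 14584 genes. The summed level of 10 neutrophil markers was 21129 to 39034 CPM (read counts scaled to library size after TMM) in lung, 30301 to 43823 CPM in blood and 87088 to 127086 CPM in bone marrow. None of these markers was at 0 in any library. They did not all follow the sum. In blood 8 of the 10 were below bone marrow without overlap and 1, Csf3r, was above it, where 25.6% and 19.8% of all genes were. Csf3r had 5210 to 10841 CPM in lung, 11325 to 15905 CPM in blood and 4394 to 5388 CPM in bone marrow. The sum is therefore not a measure of the share of neutrophils. Markers of other cells were also present. The B cell list summed to 464, 406 and 44.0 CPM in lung replicates 1, 2 and 3, against 404, 386 and 64.1 CPM in blood and 117, 68.8 and 28.8 CPM in bone marrow. The fibroblast list summed to 1482, 1269 and 89.0 CPM in lung, against at most 154 CPM elsewhere. The monocyte and macrophage list summed to 557 to 753 CPM in lung, 804 to 851 CPM in blood and 856 to 1271 CPM in bone marrow. Its 13 markers did not all follow the sum either. In lung 8 were above bone marrow without overlap and 1 below, where 20.1% and 28.9% of all genes were. Against blood, 5 were above in lung and 1 below, where 17.6% and 24.0% of all genes were. Ly6c2 alone had 544 to 861 CPM in bone marrow, against 32.3 to 49.2 CPM in lung. Replicate 3 was lowest of its tissue in the B cell list in all 3 tissues and in the fibroblast list in lung and blood. The part of these other cells in the Schlafen values was not tested. In bulk RNA, fewer cells that express a gene and less RNA per cell cannot be told apart.

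Slfn1 had the widest range between tissues of the 7 members. This short member, whose overexpression stops T cell growth, had 79.4, 109 and 182 CPM in lung, 575, 577 and 767 CPM in blood, and 396, 498 and 631 CPM in bone marrow. Every lung library was below every blood and bone marrow library, while blood and bone marrow overlapped on this scale. In the fit over all genes the log2 fold change was -2.37 ± 0.33 (SE) for lung over blood, a 5.18-fold lower level in lung. It was -2.04 ± 0.33 for lung over bone marrow and 0.33 ± 0.31 for blood over bone marrow. On the deposited FPKM scale (reads scaled to transcript length and library size) Slfn1 stood at 62.9 ± 12.9 in lung, 372 ± 47.0 in blood and 228 ± 32.0 in bone marrow (SD, n = 3 each). There the blood libraries, at 324 to 417 FPKM, did not overlap those of bone marrow, at 194 to 257 FPKM. Among the 13510 genes ordered by mean FPKM, Slfn1 was at place 1030 in lung, 169 in blood and 302 in bone marrow. Lung replicate 3, the lung library with the lowest sums of B cell and fibroblast markers, had the highest Slfn1 of its tissue, still under the lowest bone marrow library. In CPM that library was also highest of its tissue for Slfn2, Slfn3, Slfn4, Slfn5 and Slfn8, and not for Slfn9. In FPKM Slfn1 had 49.1, 65.0 and 74.7 in lung replicates 1, 2 and 3. The parts of scaling and of other cells were not tested.

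Slfn2 is the other short member, and its mutation in mice costs T cells and monocytes their quiescence. It had 503, 487 and 863 CPM in lung, 718, 633 and 1038 CPM in blood, and 606, 727 and 952 CPM in bone marrow, and all 3 tissues overlapped. In the same fit the log2 difference was -0.37 ± 0.30 (SE) for lung over blood, 0.06 ± 0.30 for blood over bone marrow and -0.30 ± 0.30 for lung over bone marrow. On the FPKM scale it was among the most abundant transcripts, at 355 ± 36.9 in lung, 513 ± 101 in blood and 382 ± 50.7 in bone marrow (SD, n = 3 each). The blood libraries, at 451 to 630 FPKM, stood above lung at 323 to 395 FPKM and bone marrow at 331 to 432 FPKM. Whether Slfn2 was separated between tissues thus depended on the scale. TMM multiplied the library totals by 1.18, 1.14 and 0.791 in lung, 1.08, 1.26 and 1.05 in blood, and 0.936, 0.898 and 0.776 in bone marrow, which raises the CPM of the libraries below 1.

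**Figure D1:**
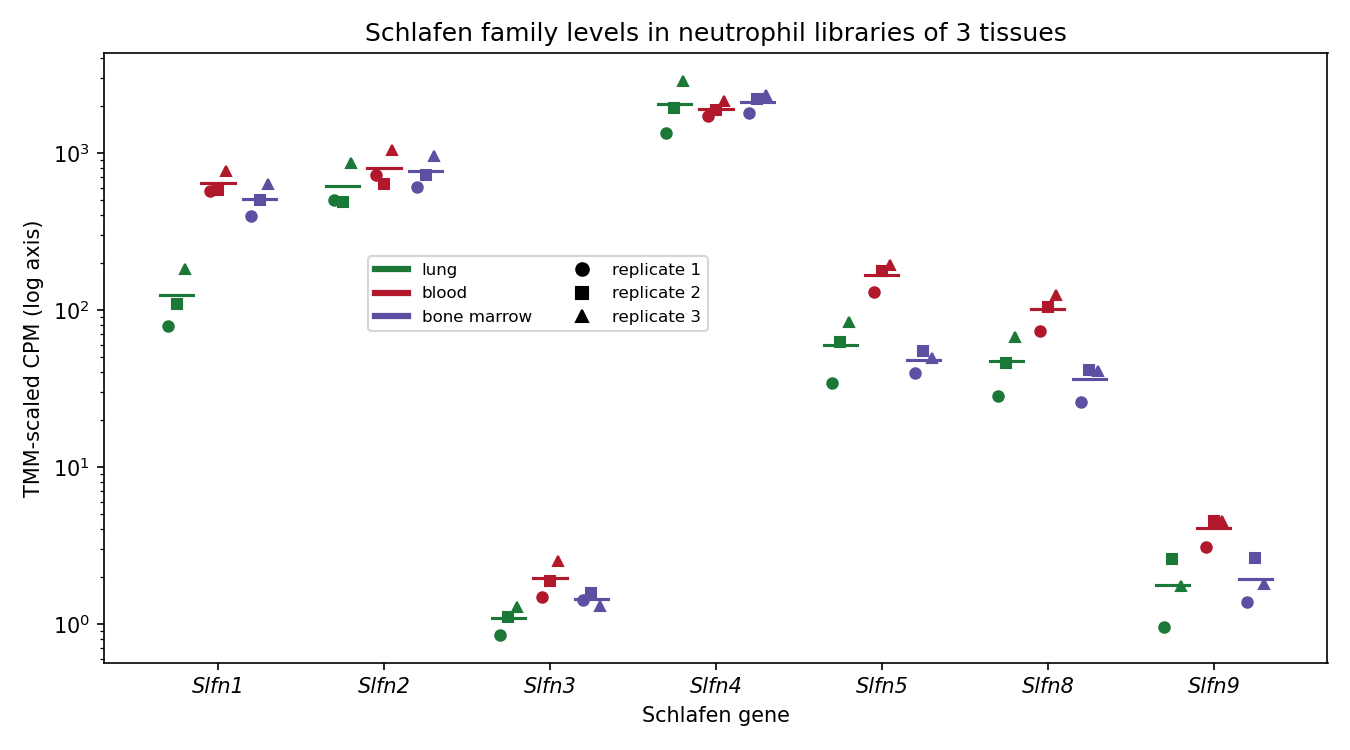
TMM-scaled CPM on a log axis of the 7 Schlafen members, with 1 point per library (shape marks the replicate) and a bar at the mean of 3 libraries, in lung, blood and bone marrow from left to right for each gene. Slfn1 is low in lung, Slfn5, Slfn8 and Slfn9 are highest in blood, and Slfn2 and Slfn4 overlap between all tissues.

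Slfn4 had the highest length-scaled level of the members in each lung and bone marrow library and differed least between tissues. This intermediate member is known from activated macrophages and myeloid suppressor cells of the mouse. It had 1345, 1933 and 2877 CPM in lung, 1710, 1886 and 2124 CPM in blood, and 1786, 2200 and 2343 CPM in bone marrow. The 3 tissues overlapped, and the lung libraries alone spanned more than the other 6. Fitted log2 differences were small, at 0.11 ± 0.29 (SE) for lung over blood, -0.15 ± 0.29 for blood over bone marrow and -0.04 ± 0.29 for lung over bone marrow. These signs are not stable, since upper-quartile scaling turned blood over bone marrow to 0.01 and lung over bone marrow to 0.25. In FPKM it stood at 500 ± 91.5 in lung, 528 ± 64.2 in blood and 451 ± 38.0 in bone marrow (SD, n = 3 each), at places 148, 105 and 144 of all genes. The FPKM ranges of Slfn4 and Slfn2 overlapped in all 3 tissues. Within single libraries the ratio of Slfn4 to Slfn2 FPKM was 1.14, 1.69 and 1.42 in lung, 1.01, 1.26 and 0.868 in blood, and 1.25, 1.28 and 1.04 in bone marrow.

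Slfn4 and Slfn8 each have 2 RefSeq transcripts, and the authors' table divides the reads between them. This split is an estimate and can be unstable. For the pseudogene Slfn10-ps, at lower counts, variant 2 took 0%, 0% and 99.7% of the reads in lung. It took 6.21%, 41.6% and 13.7% in blood, and 99.2%, 58.5% and 0% in bone marrow. Transcript variant 2 of Slfn4 (NM_001302559, 3878 bases against 3958 for variant 1) took 48.1%, 45.8% and 48.4% of the gene's reads in lung, 45.3%, 40.3% and 43.2% in blood, and 38.2%, 30.1% and 34.6% in bone marrow. No pair of tissues overlapped, and the means were 47.4 ± 1.42%, 42.9 ± 2.49% and 34.3 ± 4.06% (SD, n = 3 each). The exact two-sided permutation p was 0.1 for each pair, the smallest that 3 against 3 libraries allow, and 0.2 after adjustment over the 6 comparisons of both genes, so the design could not reach 0.05. The shorter variant 2 of Slfn8 took 57.2 ± 7.23% in lung, 49.3 ± 2.49% in blood and 52.4 ± 9.59% in bone marrow, and its tissues overlapped. The exact p was 0.3 for lung against blood, 0.9 for blood against bone marrow and 0.6 for lung against bone marrow. All 6 p-values come from counts known when the members were chosen, so no reading is drawn from them.

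**Figure D2:**
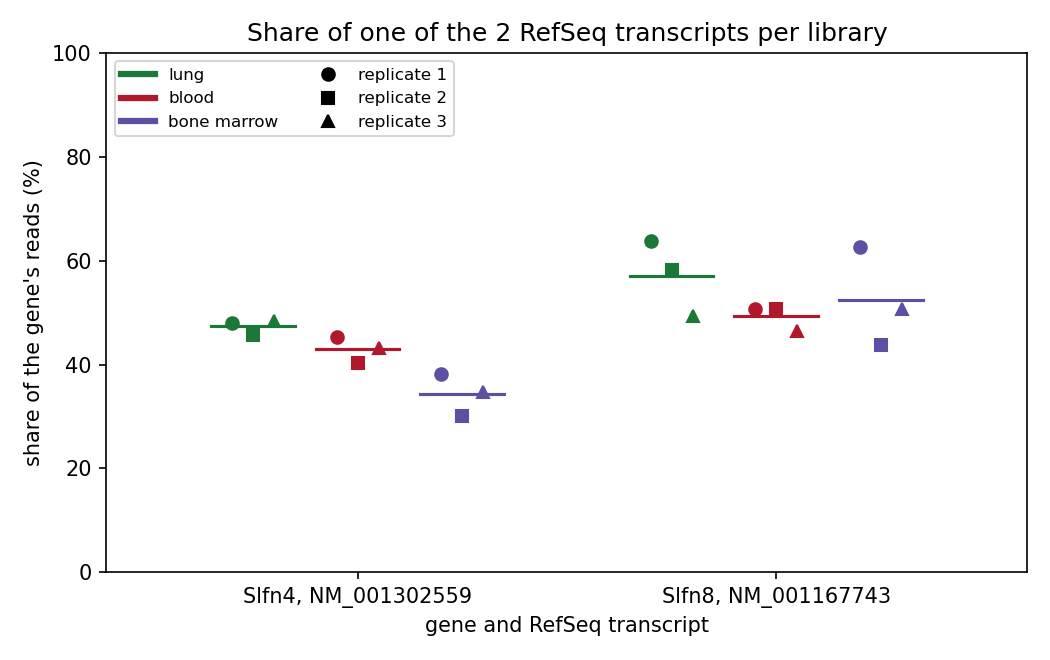
Share in percent of the gene's reads given to 1 of its 2 RefSeq transcripts, per library, for Slfn4 and Slfn8, with a bar at the mean of 3 libraries and tissues in the order lung, blood, bone marrow. The Slfn4 share is highest in lung and lowest in bone marrow without overlap, and the Slfn8 shares overlap.

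Slfn3, the other intermediate member, was low, at places 10908, 8929 and 9291 of the 13510 genes in lung, blood and bone marrow by mean FPKM. It had 47, 56 and 52 reads in lung, 68, 108 and 111 reads in blood, and 60, 81 and 51 reads in bone marrow, where Slfn4 had at least 74086 in every library. In CPM it had 0.853, 1.12 and 1.29 in lung, 1.48, 1.88 and 2.51 in blood, and 1.43, 1.59 and 1.30 in bone marrow. Lung was below blood and bone marrow without overlap. The highest lung library, at 1.29 CPM, and the lowest of bone marrow, at 1.30 CPM, nearly touched, and these tissues overlapped in FPKM. Blood and bone marrow overlapped in CPM, while in FPKM the blood libraries, at 0.852 to 1.40, stood above those of bone marrow, at 0.542 to 0.760. Slfn3 differed by a log2 fold change of -0.85 ± 0.40 (SE) for lung over blood, 0.44 ± 0.40 for blood over bone marrow and -0.41 ± 0.40 for lung over bone marrow. The coding sequences of Slfn3 and Slfn4 were identical at 1450 of 1521 aligned bases (95.3%). Of all windows of 50 bases in the Slfn3 transcript, 23.7% occurred in other genes, and 14.3% in a Slfn4 transcript. With windows of 100 bases 5.42% occurred in other genes, and the gene sharing most was Gm11427. Reads of Slfn3 are therefore uncertain, since a small error in sharing out Slfn4 reads would be large against its counts.

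Slfn5, Slfn8 and Slfn9, the long ones among the 7 members, were each highest in blood. Slfn5 is induced by interferon, and its human counterpart binds chromatin and curbs transcription. It had 34.1, 62.8 and 83.4 CPM in lung, 129, 177 and 194 CPM in blood, and 39.4, 54.8 and 49.7 CPM in bone marrow. Blood was above both other tissues without overlap, and the lung libraries spread across those of bone marrow on either side. Its log2 fold change was -1.47 ± 0.31 (SE) for lung over blood, 1.80 ± 0.31 for blood over bone marrow (3.48-fold) and 0.32 ± 0.30 for lung over bone marrow. In FPKM it stood at 9.58 ± 2.68 in lung, 30.3 ± 6.89 in blood and 6.75 ± 1.10 in bone marrow (SD, n = 3 each).

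Slfn8, a long member described in mouse T cells, followed the same order. It had 28.4, 46.1 and 67.2 CPM in lung, 73.8, 104 and 124 CPM in blood, and 25.9, 41.4 and 41.0 CPM in bone marrow. Blood was again above both others without overlap, with 67.2 CPM in the highest lung library and 73.8 CPM in the lowest blood library. The log2 fold change was -1.09 ± 0.33 (SE) for lung over blood, 1.48 ± 0.33 for blood over bone marrow (2.79-fold) and 0.39 ± 0.33 for lung over bone marrow. In FPKM, 9.69 to 14.9 in lung stood against 22.2 to 36.2 in blood and 6.98 to 10.2 in bone marrow. Within single libraries the ratio of Slfn5 to Slfn8 FPKM, which no scaling of libraries can move, was 0.675, 0.777 and 0.723 in lung, 1.02, 0.987 and 0.918 in blood, and 0.856, 0.784 and 0.705 in bone marrow. Blood had the highest ratios, above all 6 other libraries, and lung and bone marrow overlapped.

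Slfn9, the near copy of Slfn8, was low. It had 53, 131 and 70 reads in lung, 142, 261 and 201 reads in blood, and 58, 135 and 70 reads in bone marrow. In CPM this was 0.962, 2.61 and 1.74 in lung, 3.10, 4.54 and 4.55 in blood, and 1.38, 2.65 and 1.79 in bone marrow, with blood above the rest without overlap. The log2 fold change was -1.20 ± 0.45 (SE) for lung over blood, 1.06 ± 0.45 for blood over bone marrow and -0.13 ± 0.44 for lung over bone marrow. Of the windows of 100 bases in the Slfn9 transcript, 3.90% occurred in another gene, mostly Slfn10-ps, and 3.71% of those of Slfn8 did. With windows of 50 bases these shares were 11.9% and 15.4%. Slfn9 reads may thus hold misplaced reads of its neighbours.

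Over the 7 members in CPM, 5 had all lung libraries below all blood libraries and 0 had them above, where 24.0% and 17.6% of all 13510 genes did. Blood was above bone marrow without overlap for 3 of 7, against 19.8% of all genes, and below it for 0 of 7, against 25.6%. Lung was below bone marrow without overlap for 2 of 7 (Slfn1 and Slfn3), against 28.9% of all genes, and above it for 0 of 7, against 20.1%. In CPM, Slfn5, Slfn8 and Slfn9 had blood above both other tissues, as did 8.68% of all genes. These counts hung on the scale. In FPKM, all members but Slfn4 had blood above both other tissues without overlap, 6 of 7, against 16.9% of all genes. With FPKM, lung was thus below blood for 6 of 7, against 29.7% of all genes, and blood above bone marrow for 6 of 7, against 33.7%. Lung was below bone marrow for 1 of 7 (Slfn1), against 22.9%. The members were chosen on these counts, so these shares stand side by side without a reading. The median log2 fold change of the members was -1.09 for lung over blood, 0.44 for blood over bone marrow and -0.13 for lung over bone marrow, against 0.05, -0.05 and 0.06 for all genes.

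The summed FPKM of the 7 members was 808, 960 and 1056 in lung, 1277, 1488 and 1666 in blood, and 952, 1126 and 1156 in bone marrow. On this scale blood was highest without overlap, and lung and bone marrow overlapped. With TMM scaling the sum was 703, 870 and 1385 CPM per kb in lung, 1221, 1233 and 1649 CPM per kb in blood, and 1048, 1287 and 1529 CPM per kb in bone marrow, and all tissues overlapped. The make-up of this sum differed between tissues, with little spread inside them for Slfn1 and a wider spread for Slfn4 and Slfn2. Slfn1 gave 6.08%, 6.77% and 7.07% in lung, 25.3%, 25.2% and 25.1% in blood, and 20.3%, 20.8% and 22.2% in bone marrow. Slfn4 gave 48.8%, 56.7% and 53.0% in lung, 35.7%, 39.0% and 32.8% in blood, and 43.4%, 43.5% and 39.0% in bone marrow. Slfn2 gave 33.6% to 43.0% in lung, 30.8% to 37.8% in blood and 34.0% to 37.4% in bone marrow, with overlap throughout. These shares are taken within a library and do not depend on how libraries are scaled to each other.

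**Figure D3:**
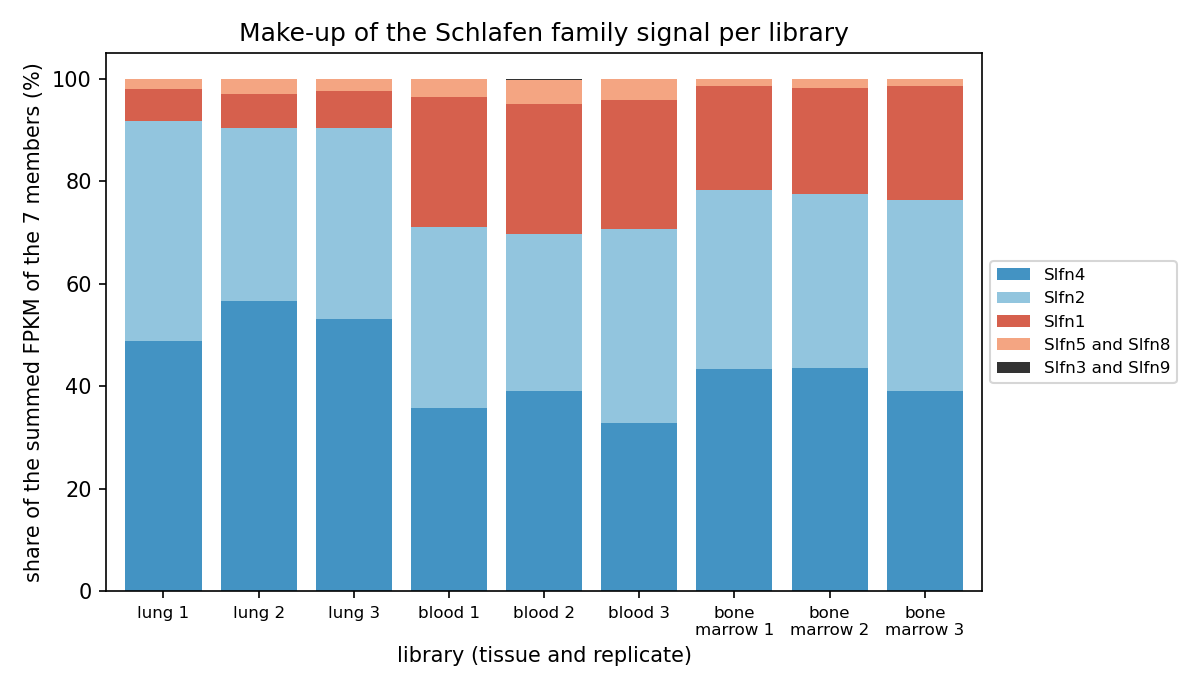
Share in percent of the summed FPKM of the 7 members that each member or pair of members takes, as stacked bars for each of the 9 libraries. Slfn1 takes 6.08% to 7.07% in lung, 25.1% to 25.3% in blood and 20.3% to 22.2% in bone marrow.

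The table lists 4 further symbols that begin with Slfn. Slfn10-ps, the pseudogene between Slfn8 and Slfn2, had 3.00, 5.38 and 7.45 CPM in lung, 7.72, 12.7 and 14.7 CPM in blood, and 2.84, 2.88 and 2.74 CPM in bone marrow. It was highest in blood without overlap, at -1.15 ± 0.35 (SE) log2 for lung over blood and 2.05 ± 0.36 for blood over bone marrow. Of its windows, 19.7% of those of 50 bases and 7.84% of those of 100 bases occurred in other genes. Slfn14, a long member whose human counterpart cuts RNA in red cell precursors and platelets, had 0, 3 and 8 reads in lung, 4, 0 and 3 reads in blood, and 474, 601 and 34 reads in bone marrow. Beside it, the red cell anion exchanger Slc4a1 had 0.127, 0.399 and 0 CPM in lung, 1.00, 1.30 and 0.0680 CPM in blood, and 181, 196 and 5.45 CPM in bone marrow. Klf1, a transcription factor of red cell precursors, had 0.127, 0 and 0 CPM in lung, 0 CPM in every blood library, and 1.43, 0.745 and 0 CPM in bone marrow. Epor, the erythropoietin receptor gene, had 0.0993 to 0.490 CPM in lung, 0 CPM in every blood library, and 0.0767 to 1.72 CPM in bone marrow. Slfn14 and Slc4a1 were high in bone marrow replicates 1 and 2 and low in the other 7 libraries. The part of red cell precursors in the Slfn14 level was not tested. Slfn5os, antisense to Slfn5, was listed at 0 in all libraries, and Slfnl1 on chromosome 4 had at most 15 reads.

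Along the cluster, Slfn5, Slfn9, Slfn8 and Slfn10-ps, which lie next to each other, were the 4 genes of the cluster with blood above both other tissues in CPM. In FPKM this was also so for Slfn1, Slfn2 and Slfn3, so the 4 do not stand apart by position on that scale. Slfn1 and Slfn4 are also neighbours and differed in their values. Rffl, a ubiquitin ligase gene, was the farthest from Slfn5 of the 5 genes taken on that side of the cluster. It averaged 26.5 CPM in lung, 51.0 in blood and 94.4 in bone marrow, and was lower at both steps. The log2 fold change was -0.94 ± 0.16 (SE) for lung over blood (edgeR adjusted p = 0.0029) and -0.89 ± 0.15 for blood over bone marrow (edgeR adjusted p = 0.0044). The first call was lost with RSEM counts and the second on the FPKM scale, and over the alternatives the adjusted p ran from 1.6e-05 to 0.053 and from 1.2e-05 to 0.11. Rad51d, a DNA repair gene next to Rffl, was lower in lung, at a mean of 12.8 CPM against 48.0 CPM in blood (log2 -1.90 ± 0.14, edgeR adjusted p = 0.0002). In bone marrow its mean was 34.4 CPM (blood over bone marrow 0.48 ± 0.13, edgeR adjusted p = 0.034). That call was lost in 9 of 18 alternatives, with adjusted p from 0.0059 to 0.16. In CPM, Rad51d outside the cluster thus also had blood above both other tissues without overlap. On the far side, Ap2b1, a clathrin adaptor subunit, was higher in lung, at a mean of 114 CPM against 59.0 CPM in blood (log2 0.95 ± 0.20, edgeR adjusted p = 0.0076). Its call was lost without any 1 blood library (0.082, 0.073 and 0.065 without replicates 1, 2 and 3), with alternatives running from 0.00056 to 0.082. Among other genes within 5 places of the cluster, Nle1, AA465934 and AI450353 passed the filter and were not called, and Fndc8, Unc45b and Snord7 did not pass it.

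**Figure D4:**
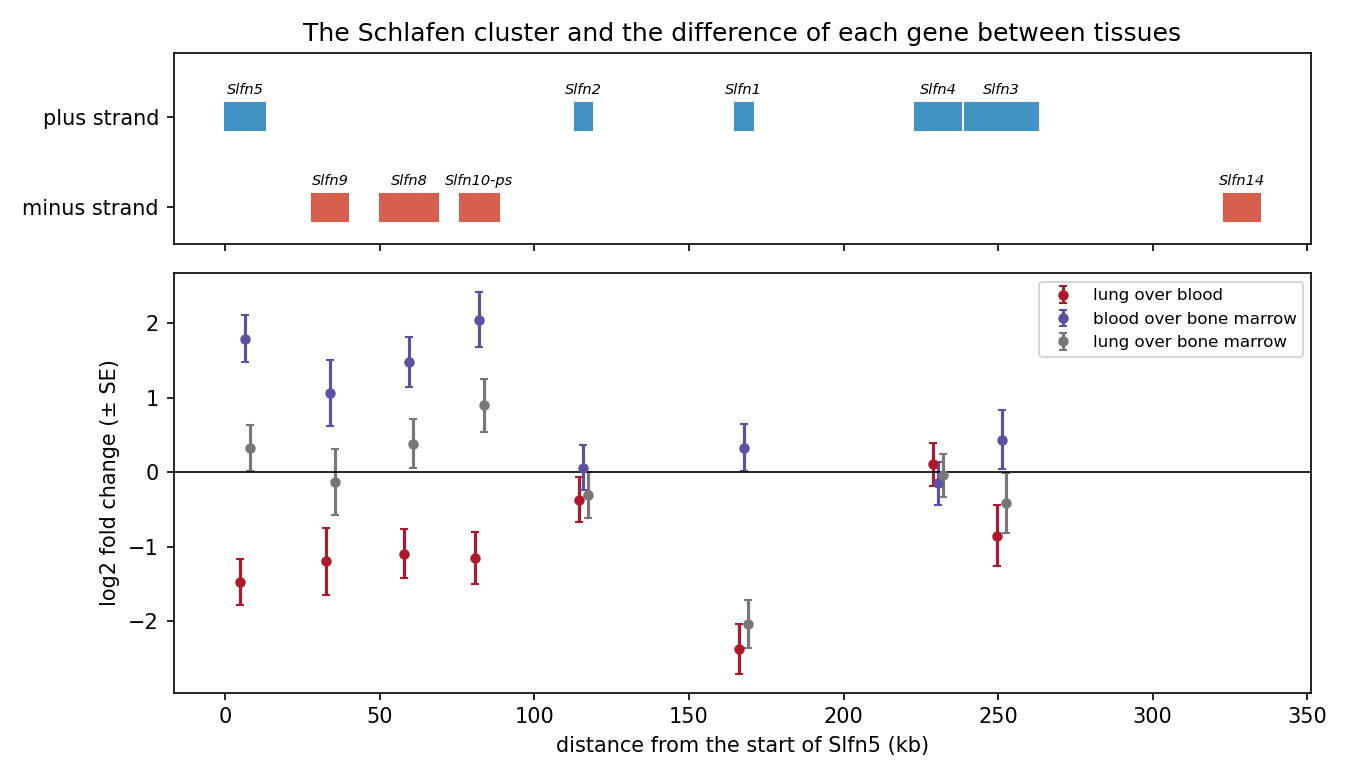
Top, the 9 Schlafen genes by distance in kb from the start of Slfn5 and by strand; bottom, the log2 fold change ± SE of each gene but Slfn14 for the 3 comparisons, with points shifted slightly sideways for legibility. The 4 genes at the left end, Slfn5 to Slfn10-ps, lie above 0 for blood over bone marrow and below 0 for lung over blood.

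The genes most like each member were those with the smallest root-mean-square difference of log2 CPM, centred over the 9 libraries, among 7950 genes with a mean of at least 5 CPM. Libraries share depth and scaling, so likeness is a description. Nearest to Slfn5 were Irgm1, an immunity-related GTPase, at 0.180, the ADP receptor gene P2ry13 at 0.193, and Slfn8 at 0.197. Nearest to Slfn8 were Oasl2, an oligoadenylate synthetase-like gene, at 0.105, the zinc finger gene Zfp397 at 0.153, and Irgm1 at 0.165, and Slfn5 was at place 5. Irgm1 had 14.8, 24.1 and 29.4 CPM in lung, 50.6, 53.1 and 71.1 CPM in blood, and 13.4, 21.0 and 23.4 CPM in bone marrow. Like Slfn5 and Slfn8, it was highest in blood without overlap. Nearest to Slfn1 were the selenophosphate synthetase gene Sephs2 at 0.220, Slc35a5, of a family of nucleotide sugar transporters, at 0.221, and the cytokine gene Il16 at 0.229. Sephs2 had 63.3, 69.6 and 91.9 CPM in lung, 395, 297 and 386 CPM in blood, and 274, 308 and 363 CPM in bone marrow. It was low in lung, as Slfn1 was. Slfn2 and Slfn4 moved little, with spreads of 0.362 and 0.292 around their own means. Their nearest genes were Slc39a4, Gsdmd and Man2b1 for Slfn2, at 0.0798 to 0.104, and Wdr48, Nfat5 and Pnpla7 for Slfn4, at 0.0733 to 0.116. Slfn3 and Slfn9 were under 5 CPM and were not compared.

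Interferon-stimulated genes other than Schlafen were lower in lung than in blood more often than higher. In a list of 56 such genes, 55 were tested, and for lung over blood 2 rose and 15 fell (edgeR quasi-likelihood test, Benjamini-Hochberg adjusted p under 0.05), where 28.9% of all genes were called (13.2% higher and 15.7% lower). The list's median log2 fold change was -0.46, against 0.05 for all genes. Dtx3l, a ubiquitin ligase, fell to 16.0, 23.3 and 29.9 CPM in lung, against 72.9, 90.3 and 111 CPM in blood, at -1.98 ± 0.25 (edgeR adjusted p = 0.00088). Usp18, which removes ISG15 and damps the type I receptor, fell by 1.66 ± 0.31 on the log2 scale (edgeR adjusted p = 0.0050). Isg15 itself, a ubiquitin-like modifier, rose to 145, 176 and 288 CPM in lung, against 52.7, 47.7 and 54.8 CPM in blood, at 1.97 ± 0.29 (edgeR adjusted p = 0.0018). The antiviral Ifit3b, at -1.57 ± 0.44, passed (edgeR adjusted p = 0.026), with alternatives from 0.00037 to 0.14. It did not pass without blood replicate 2 (0.082) or 3 (0.14), without lung replicate 1 (0.072) or 2 (0.077), with DESeq2 size factors (0.053) or with no filter on low counts (0.053). The count of 17 called genes rests on single libraries. It was 11 without lung replicate 1, 28 without lung replicate 3, and 11, 6 and 4 without blood replicates 1, 2 and 3. It was 9 with DESeq2 size factors, 27 on the FPKM scale and 28 with the replicate number as a block (2 higher and 26 lower).

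For blood over bone marrow 11 of the 55 rose and 2 fell, where 21.4% of all genes were called (8.34% higher and 13.1% lower). The higher genes were 39.0% of these calls, against 67.0% on the FPKM scale. The list's median was 0.55, against -0.05 for all genes. Ifitm1, a membrane protein that restricts virus entry, had 451, 390 and 540 CPM in blood, against 131, 129 and 175 CPM in bone marrow, at 1.67 ± 0.25 (edgeR adjusted p = 0.0019). Gbp3, a guanylate-binding protein, and Parp14, an ADP-ribosyltransferase, rose by 1.48 ± 0.30 and 1.12 ± 0.20 (edgeR adjusted p = 0.0084 and 0.0044). Without blood replicate 3 Parp14 stood at 0.0501, the highest of its alternatives, which began at 0.00012. Oasl2, the gene nearest to Slfn8, had 382, 508 and 699 CPM in blood, against 140, 227 and 258 CPM in bone marrow, at 1.34 ± 0.37 (edgeR adjusted p = 0.033). Its call was lost when any 1 blood or bone marrow library, or lung replicate 2, was left out (adjusted p = 0.0514 to 0.141), and the lowest of its alternatives was 0.00066. The 13 calls became 6, 4 and 4 without blood replicates 1, 2 and 3, and 6, 4 and 5 without bone marrow replicates 1, 2 and 3. They became 22 with upper-quartile scaling, 22 with the 6 blood and bone marrow libraries only, 35 on the FPKM scale, and 28 with the replicate number as a block (24 higher and 4 lower).

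For lung over bone marrow 6 of the 55 rose and 8 fell, where 38.2% of all genes were called (15.6% higher and 22.6% lower), with a median of 0.07 against 0.06 for all genes. Isg15 rose by 2.80 ± 0.30, Ifitm1 by 2.06 ± 0.25 and the exonuclease gene Isg20 by 1.65 ± 0.27 (edgeR adjusted p = 0.00017, 0.00031 and 0.0015). Cmpk2, a nucleotide kinase, fell to 20.6, 32.0 and 46.6 CPM in lung, against 94.7, 139 and 151 CPM in bone marrow, at -1.96 ± 0.32 (edgeR adjusted p = 0.0015). The 14 calls became 8 without lung replicate 2, 24 without lung replicate 3, 9 and 8 without blood replicates 1 and 2, and 8 and 7 without bone marrow replicates 2 and 3. They became 9 with the 6 lung and bone marrow libraries only and 25 with the replicate number as a block (10 higher and 15 lower). The comparisons of lung with blood and of blood with bone marrow share the blood libraries.

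**Figure D5:**
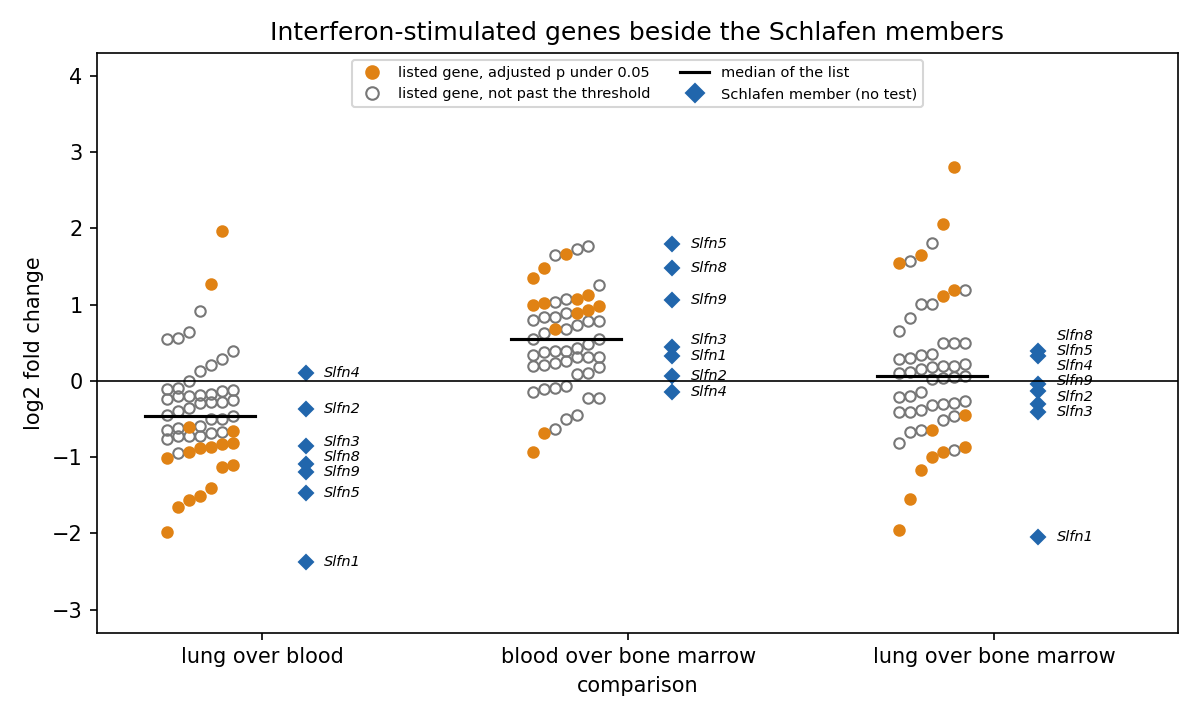
Log2 fold change of 55 interferon-stimulated genes (circles, filled where the edgeR adjusted p is under 0.05, with a line at the list's median) beside the 7 Schlafen members (diamonds, no test) for lung over blood, blood over bone marrow and lung over bone marrow. The list's medians are -0.46, 0.55 and 0.07.

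Of 21 genes for interferon receptors and signalling, all tested, 5 rose and 7 fell for lung over blood, 4 rose and 1 fell for blood over bone marrow, and 5 rose and 4 fell for lung over bone marrow (edgeR adjusted p under 0.05). These 12, 5 and 9 calls stand beside 28.9%, 21.4% and 38.2% of all genes called, and for the last pair of comparisons the list's share is near that of all genes. Socs3, an inhibitor of cytokine signalling, had 678, 650 and 1024 CPM in blood, against 112, 150 and 158 CPM in bone marrow, at 2.49 ± 0.26 (edgeR adjusted p = 0.00028). Irf1, an interferon regulatory factor, rose by 1.07 ± 0.20 in the same comparison (edgeR adjusted p = 0.0058). The receptor chain gene Ifnar1 had 287, 298 and 466 CPM in lung, against 144, 147 and 187 CPM in blood, at 1.14 ± 0.21 (edgeR adjusted p = 0.0053), a call lost without blood replicate 1 (0.067) or 2 (0.066) in a range that began at 7.6e-05. Irf2, known as a repressor of interferon genes, fell by 1.27 ± 0.18 (edgeR adjusted p = 0.0015). The phosphatase gene Ptpn6 fell by 1.30 ± 0.28 (edgeR adjusted p = 0.0092), but not without blood replicate 3 (0.089, the highest of alternatives that began at 0.00013). For lung over bone marrow, Socs3, Ifnar1 and Irf5 rose by 1.59 ± 0.25, 1.41 ± 0.22 and 1.25 ± 0.19 (edgeR adjusted p = 0.0012, 0.0011 and 0.0010). The counts rest on single libraries here too. The 12 calls of lung over blood became 4, 3 and 4 without blood replicates 1, 2 and 3. The 5 of blood over bone marrow became 3, 2 and 2 without these, and 2 without bone marrow replicate 1 or 2. The 9 of lung over bone marrow became 5 without blood replicate 1 or 2 or bone marrow replicate 2 or 3.

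Of 21 interferon ligand genes in the table, 16 were listed at 0 in every library and only Ifng passed the filter. Ifng, the type II interferon of T and NK cells, had 4.52, 2.19 and 0.149 CPM in lung, 0.327, 0.660 and 0 CPM in blood, and 5.72, 5.68 and 1.30 CPM in bone marrow. The 14 T and NK cell markers summed to 163, 166 and 29.0 CPM in lung, 50.2, 152 and 27.4 CPM in blood, and 128, 140 and 43.4 CPM in bone marrow. Ifng was lowest in the replicate 3 library of each tissue, where these markers were lowest too, and their part in it was not tested. Ifnb1 had at most 32 reads.

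A separate count of the lung and blood libraries, by RSEM on GENCODE genes, gave the Schlafen values with another counter and another annotation at once, whose parts cannot be told apart. The log2 fold change for lung over blood was -2.38 for Slfn1, -1.44 for Slfn5, -1.07 for Slfn8, -0.99 for Slfn3, -0.89 for Slfn9, -0.32 for Slfn2 and 0.15 for Slfn4. All signs were those of the main counts. Over all genes the deposited counts were 1.999 to 2.018 times the RSEM counts in the median. For Slfn9 this ratio was 0.764 to 1.33, and for Slfn3 2.27 to 2.74. The GENCODE transcript of Slfn9 has 5769 bases and the RefSeq one 3856. RSEM gave the antisense gene Slfn5os 11.4, 20.0 and 0 expected counts in blood, against 2913, 5086 and 4275 for Slfn5. The labels name both a standard and a stranded kit and do not say how strand was counted, so reads of this pair cannot be told apart.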

How the data were processed

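Neutrophil RNA of 9 libraries (3 tissues, 3 each) was analysed. The deposited series table gives, per RefSeq transcript on mm10, a read count and an FPKM value made by the authors; per the file headers the count is not normalized, and each library's FPKM equals count over length up to 1 constant. The lung and blood files also hold RSEM expected counts and TPM per GENCODE gene, per the file headers, and the bone marrow files repeat the series table in all 36780 transcripts. The submitters' processing notes name STAR, Bowtie2, RSEM, StringTie 2.1.3b and DESeq2, without roles. TPM was not tested.

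Counts were summed over transcripts to 24532 genes. edgeR 4.0.16 (TMM, robust quasi-likelihood fit of all 9 libraries, filterByExpr) tested 13510 genes with Benjamini-Hochberg adjustment at 0.05. The SE is the absolute log2 fold change over the square root of F. The common biological coefficient of variation was 0.448. The fit was tested on simulated data. Totals of 42045548 to 56796219 reads put 3 reads, taken as the floor, at 0.0528 to 0.0714 CPM, which covers counting error only. Likeness, examples and neighbours were named by rule: the 3 nearest genes of at least 5 mean CPM, up to 4 called genes per list and comparison with the largest change and at least 5 CPM, and 5 genes on each side of the cluster. Alternatives were DESeq2 1.42.0 and its size factors, upper-quartile scaling, no filter, limma-voom (limma 3.58.1), limma on log2(FPKM + 0.1), RSEM counts rounded to whole numbers, 6 libraries only, each library left out, and replicate number as a block. The labels do not say what a replicate number shares. Deviations from the tissue means correlated between same-numbered libraries at 0.127 to 0.518 for lung with blood, 0.153 to 0.186 for lung with bone marrow and 0.0489 to 0.382 for blood with bone marrow (3 pairs each). A minimum of 0.1 in every pair was met for lung with blood and with bone marrow, and not for blood with bone marrow. Unlike-numbered libraries ran from -0.504 to 0.453, and some of them exceeded same-numbered ones. Lung replicate 1 stood at 0.453 with blood replicate 2 and at 0.127 with blood replicate 1. This minimum therefore cannot establish that the numbers pair the libraries. Leaving out all replicate 3 libraries was chosen after seeing the data. Column numbers in the table run 1 above the replicate numbers of the sample titles, which are used here. Members and lists were chosen with earlier results of these data known. Some markers and neighbouring genes are not reported here.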

Additional observations from a re-analysis of the deposited data

How the results depend on the processing

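The 21 member differences were recomputed 385 times. As folds, not as log2 values, 0 moved by over 1.5 times. By the SD, 7 moved by more than it and 378 stayed within it. The sign changed 28 times, for Slfn2, Slfn4, Slfn5 and Slfn9 in differences within 0.37 of 0. On FPKM, blood over bone marrow was 0.71 for Slfn1, 0.42 for Slfn2, 0.22 for Slfn4 and 2.14 for Slfn5, where the median of all genes shifted by 0.30. Relative to that median Slfn5 stood at 1.88, against 1.84 in the reported fit. Slfn3, lung over bone marrow, ran from -0.64 to -0.11. With the replicate block the interferon-stimulated calls were 28 for lung over blood, 28 for blood over bone marrow and 25 for lung over bone marrow, and all calls 4751, 3990 and 5973; the block ended no call of a gene named in the text. Lung replicate 1 correlated best with blood replicate 2.

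For lung over blood, interferon-stimulated calls (17) were 9 with DESeq2 size factors and 27 on FPKM, and 4 to 28 with 1 library left out; signalling calls (12) were 7 with DESeq2 size factors, 7 without a filter, 7 with 6 libraries only, and 3 to 13 with 1 library left out. For blood over bone marrow, interferon-stimulated calls (13) were 22 with upper-quartile scaling, 35 on FPKM, 22 with 6 libraries, 21 without the replicate 3 libraries, and 4 to 18 with 1 left out; signalling calls (5) were 3 with DESeq2 size factors, 8 with upper-quartile scaling, 3 without a filter, 14 on FPKM, 8 with 6 libraries, 8 without the replicate 3 libraries, and 2 to 6 with 1 left out. For lung over bone marrow, interferon-stimulated calls (14) were 9 with 6 libraries, 25 without the replicate 3 libraries, and 7 to 24 with 1 left out; signalling calls (9) were 5 with 6 libraries, and 5 to 10 with 1 left out. Over all genes, 3900, 2892 and 5158 calls became 1922 to 5852, 1236 to 3965 and 3258 to 6984 with 1 left out, and 6062, 3927 and 7780 without the replicate 3 libraries. Of the calls for blood over bone marrow, 39.0% were higher, against 52.6% with upper-quartile scaling, 67.0% on FPKM and 54.9% with 6 libraries. The cause of these differences was not tested.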
